A study of Bos taurus with 6 samples.

Results

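The genes described here build the adherens junctions and the transzonal projections that tie cumulus cells to the oocyte. A list of 10 genes was taken: the cadherins CDH1 and CDH2, the catenins CTNNB1, CTNNA1 and CTNND1, the tight junction proteins TJP1 and OCLN, and the filopodium genes FSCN1, DAAM1 and MYO10. Every probe set of the array whose annotation names one of them, and no other gene, was kept. Of the 10 genes, 8 had at least 1 such probe set, which gave 12 of the 24016 probe sets tested. No probe set in the annotation used here carries the symbol CTNND1 or OCLN, so these genes were not analysed here. CDH1, TJP1, FSCN1 and DAAM1 have 2 probe sets each, called brighter and dimmer below by their mean signal. The probe sets of a gene were read on the same arrays and are not replicates of each other.

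Cumulus cells surround the oocyte and reach it through the zona pellucida by thin cytoplasmic extensions, the transzonal projections, many of which hold a core of bundled actin. At their tips cadherins of the cumulus cell and the oocyte bind each other, and gap junctions pass small molecules. Inside the cell, beta-catenin binds the cadherin tail and alpha-catenin links this complex to actin, while formins, fascin and myosin-X build and extend actin-filled protrusions.

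The samples were pooled cumulus cells of cows, crosses of Bos indicus and Bos taurus, stripped by pipetting from complexes with compact cumulus, and their RNA was hybridised to 6 Affymetrix bovine arrays. The 3 large-follicle arrays hold cells from follicles that measured at least 8 mm, which the submitters call competent, and the 3 small-follicle arrays hold cells from follicles that measured 1 to 3 mm, labelled incompetent. The ovaries came from slaughtered animals, and neither the age of the cows nor the number of cows or complexes in a pool is given in the sources used here. By their titles the arrays of each group are biological replicates, and a p-value here reflects only how these pools vary. The study uses follicle size as its model of oocyte competence, and the comparison asks which cumulus transcripts differ with it.

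Values are log2 RMA signals, in which 1 unit is a doubling, and the array medians lay between 5.64 and 5.68. RMA values carry no detection call, so a signal below the lower quartile of the probe set means (3.83) is called low here. The number of arrays limits the precision. One measure of RNA quality, the 3'-minus-5' index, was lower in the large-follicle arrays. It is the mean gap between the 3' and the 5' probe set of 6 bovine control transcripts. It averaged 1.98 ± 0.19 (SD, n = 3) for large follicles against 2.46 ± 0.27 (SD, n = 3) for small ones, -0.48 apart (p = 0.1 by a 2-sided exact permutation test, which with 3 arrays on either side cannot go lower).

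None of the 12 probe sets passed the test between follicle sizes. In limma, with Benjamini-Hochberg adjusted p-values (24016 tests) and a threshold of 0.05, 0 of 12 were called, against 12.9% of all probe sets (5.72% with the higher signal in large-follicle arrays and 7.16% with the lower). At a looser threshold of 0.1, 1 of 12 was called, the brighter DAAM1 probe set, against 18.8% of all probe sets. At an unadjusted p under 0.05 there were 2, the brighter probe sets of DAAM1 and FSCN1, against 27% of all probe sets. The groups did not overlap in 3 of 12 (25.0%), against 30.9% of all probe sets. Among probe sets with a mean of at least 9.5, they did not overlap in 1 of 4 members (CDH2), against 45.5% of all. That level was set for a comparison of lowest arrays given below, and a share of 4 probe sets is coarse. The largest difference among the members in either direction was 0.39 log2 units, and the median size was 0.13, close to the 0.15 of all probe sets. The 12 differences split evenly, 6 above 0 and 6 below. In bulk RNA of a pool, fewer cells with a transcript and less of it per cell cannot be told apart.

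**Figure D1:**
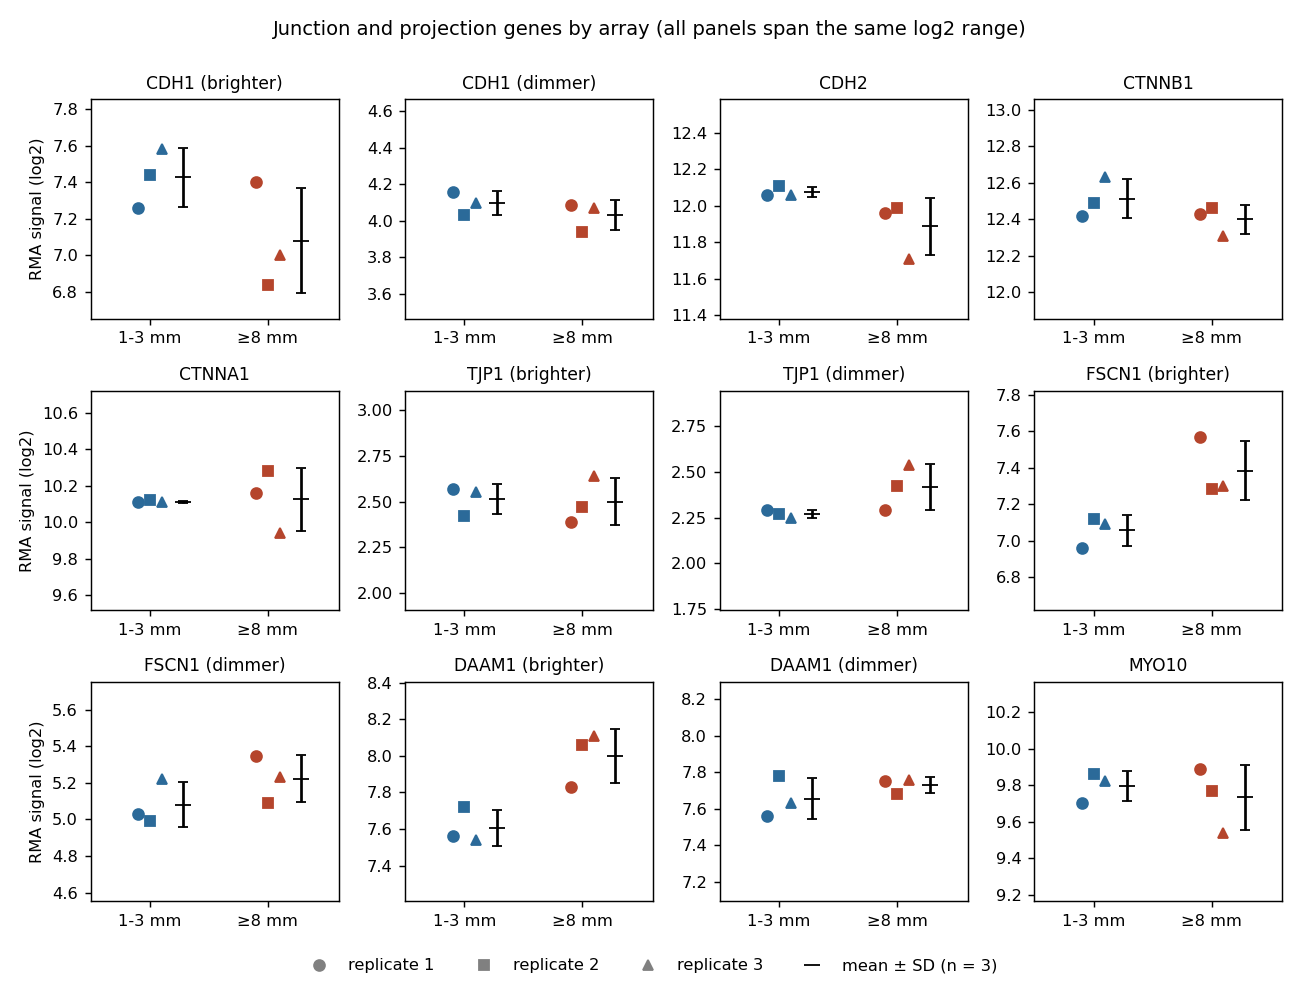
RMA signal (log2) of the 12 probe sets in each array, small-follicle (1-3 mm) in blue and large-follicle (≥8 mm) in red, with the symbol giving the replicate number and the black bar the mean ± SD (n = 3). Every panel spans the same range of log2 units, so the separated groups of DAAM1 (brighter), FSCN1 (brighter) and CDH2 can be set against the overlap in the other panels.

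The cadherins, the adhesion receptors of the junction, read slightly lower in large-follicle arrays and did not pass. CDH2, N-cadherin, read 11.96, 11.99 and 11.71 in large-follicle replicates 1, 2 and 3 and 12.06, 12.11 and 12.06 in small-follicle replicates 1, 2 and 3. All large-follicle arrays lay below all small-follicle arrays, although the gap between 11.99 and 12.06 is narrow. The difference was -0.19 ± 0.11 (SE; adjusted p = 0.303 in limma), with a 95% interval from -0.43 to 0.05, and it was -0.10 without large-follicle replicate 3, the lowest array. On the fold scale the lower bound of that interval is 0.741 times the small-follicle signal.

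CDH1, E-cadherin, varied more between pools at its brighter probe set than any other member. Its brighter probe set read 7.40, 6.84 and 7.00 in large-follicle replicates 1, 2 and 3 and 7.26, 7.44 and 7.58 in small-follicle replicates 1, 2 and 3. Large-follicle replicate 1 lay inside the small-follicle range, and the other large-follicle arrays lay below it. The difference was -0.35 ± 0.16 (SE; adjusted p = 0.203 in limma), with a 95% interval from -0.71 to 0.01, and it ranged with single arrays from -0.51 (adjusted p = 0.0697) without large-follicle replicate 1 to -0.23 (adjusted p = 0.43) without large-follicle replicate 2. The dimmer CDH1 probe set read between 3.94 and 4.16 on all arrays, just above the low range, with a difference of -0.06 ± 0.09 (SE).

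The measured catenins read close to equal between the groups, and neither passed. CTNNB1, beta-catenin, which is also the effector of canonical WNT signalling, read 12.43, 12.46 and 12.31 in large-follicle replicates 1, 2 and 3 and 12.42, 12.49 and 12.63 in small-follicle replicates 1, 2 and 3. The groups overlapped, and the difference was -0.11 ± 0.10 (SE; adjusted p = 0.541 in limma), with a 95% interval from -0.34 to 0.12. CTNNA1, alpha-catenin, read 10.16, 10.28 and 9.94 in large-follicle replicates 1, 2 and 3 against 10.11, 10.12 and 10.11 in small-follicle replicates 1, 2 and 3. The large-follicle arrays lay on both sides of the nearly identical small-follicle arrays. The difference was 0.01 ± 0.11 (SE; adjusted p = 0.96 in limma), and its 95% interval, 0.848 to 1.20 on the fold scale, leaves room for a change of that size in either direction.

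TJP1, the scaffold protein ZO-1 that links junction membranes to actin, had a low signal on every array. Its brighter probe set read between 2.39 and 2.64 and its dimmer one between 2.25 and 2.54, both below the lower quartile. The differences were -0.01 ± 0.10 (SE) and 0.15 ± 0.10 (SE), with adjusted p = 0.958 and 0.405 in limma. No difference in TJP1 was detected at this signal, which does not show that the transcript is absent.

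The differences nearest to the threshold were in the projection genes DAAM1 and FSCN1. DAAM1, a formin that nucleates and elongates unbranched actin filaments, read 7.83, 8.06 and 8.11 in large-follicle replicates 1, 2 and 3 at its brighter probe set. The small-follicle replicates 1, 2 and 3 read 7.56, 7.72 and 7.54. All large-follicle arrays lay above all small-follicle arrays, with the nearest pair at 7.83 and 7.72. The difference was 0.39 ± 0.11 (SE), 1.31-fold, with a 95% interval of 1.10 to 1.57 that is not adjusted for the number of probe sets tested, and the adjusted p was 0.0542 in limma.

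The result for DAAM1 turned on the processing and on the probe set. The adjusted p fell below 0.05 with a filter on low signal at the median (0.0312) or the lower quartile (0.0453), with a second quantile normalization (0.0328), with cyclic loess (0.0318) and with a trended robust prior (0.0446). It stayed above 0.05 when any 1 array was left out (0.052 to 0.139), with array weights (0.098) and when the 3'-minus-5' index entered as a covariate (0.35 ± 0.18, SE; adjusted p = 0.339). The dimmer DAAM1 probe set read 7.75, 7.68 and 7.76 in large-follicle against 7.56, 7.78 and 7.63 in small-follicle replicates 1, 2 and 3. It did not repeat the separation, since small-follicle replicate 2 was the highest of all, and its difference was 0.07 ± 0.10 (SE; adjusted p = 0.705). The mean of both probe sets differed by 0.23 (adjusted p = 0.123 in limma).

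FSCN1, fascin, which bundles actin filaments in filopodia, also read higher in large-follicle arrays without passing. Its brighter probe set read 7.57, 7.28 and 7.30 in large-follicle replicates 1, 2 and 3 and 6.96, 7.12 and 7.09 in small-follicle replicates 1, 2 and 3. The groups did not overlap, and large-follicle replicate 1 was the highest array and small-follicle replicate 1 the lowest. The difference was 0.33 ± 0.11 (SE; adjusted p = 0.101 in limma), 1.25-fold, and 0.23 (adjusted p = 0.283) without large-follicle replicate 1. Its dimmer probe set, between 4.99 and 5.35 on all arrays, overlapped between the groups and differed by 0.14 ± 0.11 (SE; adjusted p = 0.476).

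Large-follicle replicate 1 was also the array with the most leukocyte signal, and fascin is known from dendritic cells as well. The mean of 13 leukocyte markers was 5.61 in large-follicle replicate 1, 4.74 and 4.49 in large-follicle replicates 2 and 3, and 4.28, 4.17 and 4.87 in small-follicle replicates 1, 2 and 3. The part of leukocytes in the FSCN1 difference was not tested.

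MYO10, the unconventional myosin-X that carries cargo to filopodial tips, read 9.89, 9.77 and 9.54 in large-follicle and 9.70, 9.86 and 9.82 in small-follicle replicates 1, 2 and 3. The highest and the lowest of the 6 arrays were both large-follicle arrays. The difference was -0.06 ± 0.12 (SE; adjusted p = 0.804 in limma), with a 95% interval from -0.33 to 0.21. Without large-follicle replicate 3 it was 0.037, so the sign for MYO10 was not settled and cannot be set against those of DAAM1 and FSCN1.

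**Figure D2:**
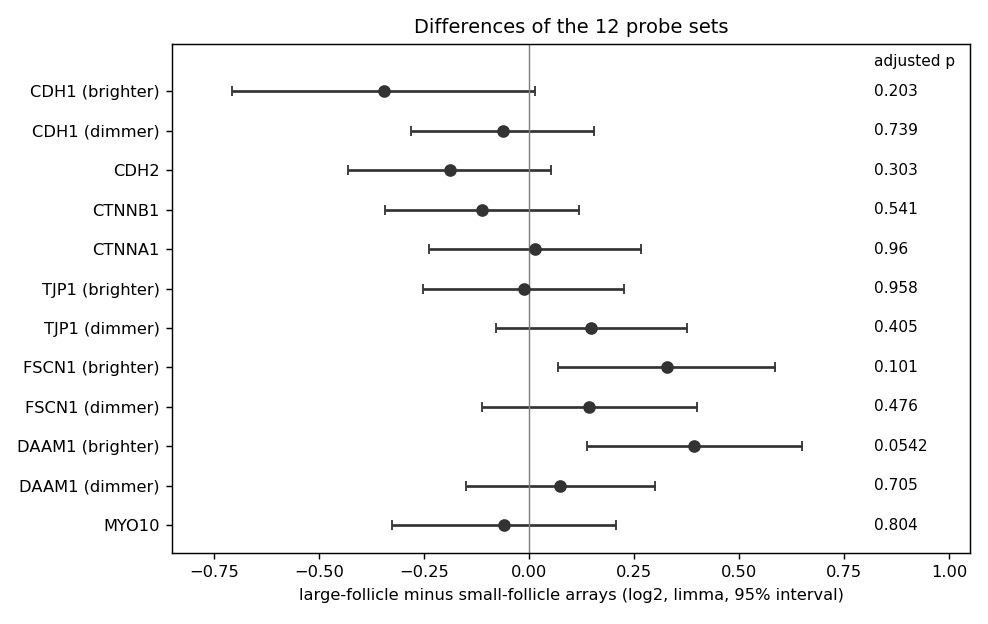
Large-follicle minus small-follicle difference (log2) of each of the 12 probe sets in limma, with its 95% interval, and the Benjamini-Hochberg adjusted p at the right. Points left of 0 are lower in large-follicle arrays, and only the brighter probe sets of FSCN1 and DAAM1 have intervals, which are not adjusted, that leave out 0.

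**Figure D3:**
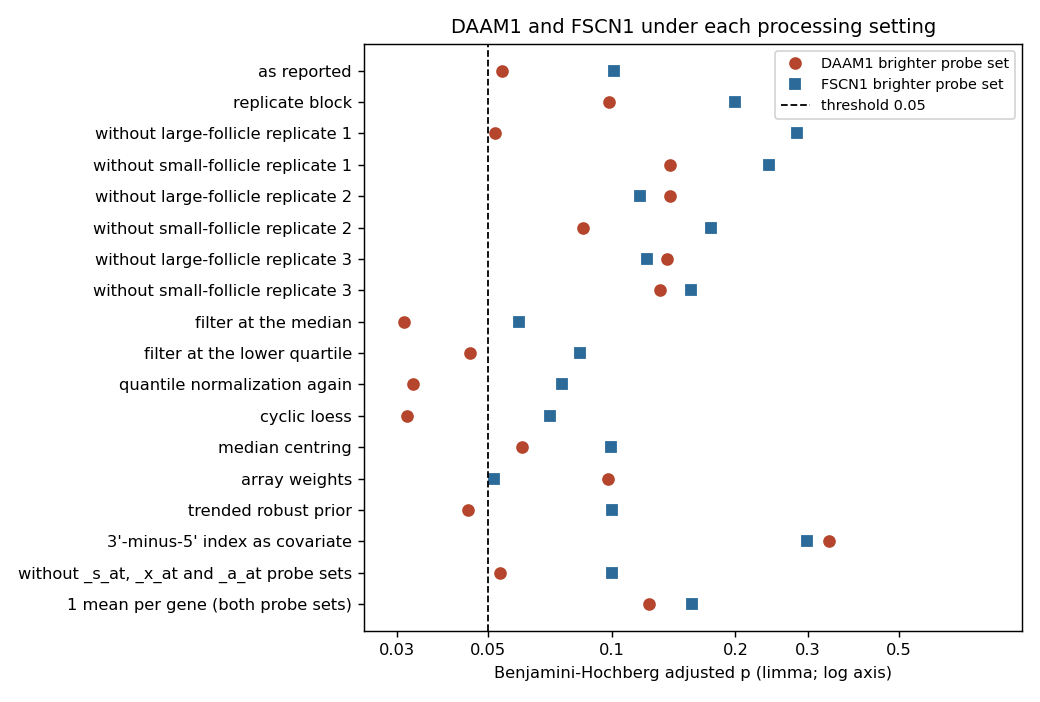
Benjamini-Hochberg adjusted p (log axis) of the brighter probe sets of DAAM1 (red circles) and FSCN1 (blue squares) under each processing setting, with the threshold of 0.05 dashed; the bottom row uses the mean of both probe sets of each gene. DAAM1 lies left of the line in 5 settings, between 0.0312 and 0.0453, and FSCN1 in none, with its lowest value at 0.0516 with array weights.

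Most members also varied more among the large-follicle pools. The SD between pools was larger in large-follicle than in small-follicle arrays in 10 of 12 probe sets (83.3%), against 51.4% of all probe sets, with median SDs of 0.14 and 0.08. Examples are CTNNA1, with 0.17 against 0.01, and CDH2, with 0.15 against 0.03. The exceptions were CTNNB1 and the dimmer DAAM1 probe set. Large-follicle replicate 3 was the lowest of the 6 arrays for CDH2, CTNNB1, CTNNA1 and MYO10, 4 of 12 (33.3%), against 14.9% of all probe sets. All of these have a mean of at least 9.5, and 21.8% of the 2291 probe sets that bright were lowest on that array. The level of 9.5 takes in exactly these 4 members, so this share is not an independent background for them. These counts are descriptions, and the members, measured on the same arrays, are not independent of each other.

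Other genes of the same structures included some that passed, in both directions, about as often as genes in general. These are read from each gene's brightest probe set, where 15.4% of 9155 genes were called, 7.08% higher and 8.3% lower in large-follicle arrays. The share called was 20.0% of further adherens junction genes, 15.4% of tight junction and polarity genes, 14.8% of filopodium and actin assembly genes, 22.2% of desmosome genes and 23.1% of beta-catenin complex genes and junction regulators. With 9 to 27 genes in a list, 1 or 2 genes move these shares by several percent, and no list was tested against the rest. Among 15 further adherens junction genes, 3 rose, 0 fell and 12 missed the threshold, with a median difference of 0.16 against 0.01 over all genes. NECTIN2, a nectin adhesion receptor of adherens junctions, rose by 0.63 ± 0.11 (SE; adjusted p = 0.00868 in limma). Its other probe sets read 0.33 and 1.02, and the last also passed. PTPRF, a receptor tyrosine phosphatase found at junctions, rose by 0.50 ± 0.10 (SE), and SSX2IP, which binds the nectin partner afadin, by 0.49 ± 0.13 (SE). CTNNAL1, an alpha-catenin relative, read 0.41 higher and did not pass (adjusted p = 0.052). It passed in 7 of the alternative fits at the same threshold, but its second probe set read 0.08 (adjusted p = 0.909), and a fit that included the 3'-minus-5' index gave 0.17 (adjusted p = 0.57).

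Tight junction and polarity genes moved singly. Among the 26 on the array, 1 rose, 3 fell and 22 missed the threshold, with a median of 0.02. CLDN7, a claudin, read 7.32, 7.49 and 7.52 in large-follicle and 6.31, 6.27 and 6.00 in small-follicle replicates 1, 2 and 3, a rise of 1.25 ± 0.12 (SE; adjusted p = 0.00116 in limma) or 2.38-fold. No large-follicle array came within 1 log2 unit of a small-follicle array. F11R, the junctional adhesion molecule JAM-A, fell by 0.76 ± 0.10 (SE) and its second called probe set by 0.40. CLDN12 fell by 0.84 ± 0.16 (SE) and JAM3 by 0.37 ± 0.09 (SE), while the other JAM3 probe set read 0.22 and did not pass. PALS1 missed the threshold at its brightest probe set (0.06), but its second read -0.54 and passed (adjusted p = 0.0249 in limma).

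Filopodium and actin assembly genes, the closest relatives of FSCN1, DAAM1 and MYO10 in function, showed 2 higher, 2 lower and 23 not passing of 27 measured, with a median of -0.02. CDC42EP1, an effector of the small GTPase CDC42, rose by 0.76 ± 0.12 (SE), and WASL, the activator N-WASP of branched actin assembly, by 0.55 ± 0.13 (SE). RDX and MSN, radixin and moesin, which tie actin to the membrane, fell by 0.51 ± 0.11 (SE) and 0.37 ± 0.09 (SE). EZR, ezrin, in the same list, went the other way at 0.31 ± 0.12 (SE) and did not pass (adjusted p = 0.142 in limma). The second WASL probe set read 0.12 and did not pass.

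Among 9 desmosome genes on the array, 0 rose, 2 fell and 7 missed the threshold, with a median of -0.09. PKP2, a plakophilin of the desmosomal plaque, fell by 0.53 ± 0.10 (SE), while its second probe set read 0.00, and DSC2, a desmosomal cadherin, fell by 0.78 ± 0.20 (SE) from 4.30 to a low 3.52. PKP4 read -0.32 and DSG1 -0.17, and neither passed.

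Some partners of beta-catenin passed the test while CTNNB1 itself did not, and the gap between them was not tested. Among 13 genes of its complex and of junction regulators, 2 rose, 1 fell and 10 missed the threshold, with a median of 0.16. LEF1, a transcription factor that beta-catenin binds, read 7.45, 7.18 and 7.56 in large-follicle and 6.35, 6.06 and 6.35 in small-follicle replicates 1, 2 and 3, a rise of 1.14 ± 0.13 (SE; adjusted p = 0.00219 in limma). The groups lay well apart. GSK3B, the kinase that marks beta-catenin for destruction, rose by 0.50 ± 0.12 (SE), with its other probe sets at 0.50 and 0.07 not passing. APC, a scaffold of the destruction complex, fell by 0.73 ± 0.12 (SE) at its brightest probe set, and its other, low probe sets read -0.26 and -0.04 and did not pass. ZEB1, a repressor of CDH1 transcription, read 0.42 higher and did not pass (adjusted p = 0.106). CSNK1A1 missed the threshold at its brightest probe set (-0.19), but other probe sets passed in both directions, at 0.50 (adjusted p = 0.0462 in limma) and -0.46 (adjusted p = 0.0211).

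These calls differed in how far they rested on single arrays. NECTIN2, PTPRF, CLDN7, F11R, CDC42EP1, PKP2, LEF1 and APC kept their calls when any 1 array was left out. CLDN12 lost its call without large-follicle replicate 1 (-0.80, adjusted p = 0.0506). SSX2IP lost its call without small-follicle replicate 1 or 2 or large-follicle replicate 2 or 3 (0.43 to 0.60 over the 6 fits). RDX lost its call without large-follicle replicate 1 or 3 or small-follicle replicate 2 or 3 (-0.59 to -0.44). DSC2 lost its call without large-follicle replicate 1, 2 or 3 or small-follicle replicate 1 (-0.92 to -0.51), and GSK3B without large-follicle replicate 1 or 2 or small-follicle replicate 1 or 3 (0.43 to 0.60). WASL was called only without large-follicle replicate 3 (0.42 to 0.64). JAM3 and MSN were called in none of the 6 fits (-0.41 to -0.32 and -0.38 to -0.34). Once the 3'-minus-5' index was added as a covariate, CLDN7 kept its call (1.38, adjusted p = 0.0407). The other genes called in these lists did not (adjusted p from 0.0503 to 0.559). Their standard errors were larger in that fit, and over all probe sets the 1374 higher and 1720 lower calls became 99 and 116. The differences of NECTIN2, CLDN12, JAM3, CDC42EP1, RDX, PKP2, DSC2, LEF1 and APC grew in size, as in DSC2 (-1.34) and NECTIN2 (0.78). Those of PTPRF, SSX2IP, F11R, WASL, MSN and GSK3B shrank, as in SSX2IP (0.18) and WASL (0.3), and no sign turned.

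**Figure D4:**
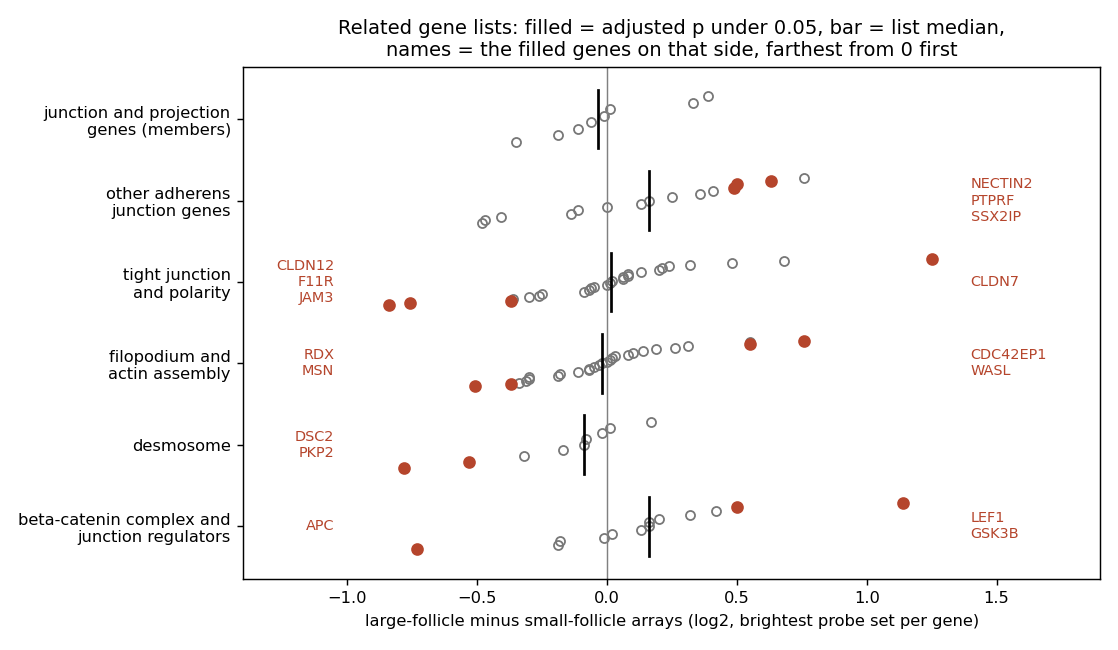
Large-follicle minus small-follicle difference (log2) of each measured gene, by its brightest probe set, in the member list and the 5 related lists; filled points passed limma at an adjusted p under 0.05, the vertical bar is the list median, and the names give the filled genes on each side. CLDN7 (1.25) and LEF1 (1.14) lie farthest to the right, CLDN12 (-0.84) and DSC2 (-0.78) farthest to the left, and no member is filled.

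Markers of the cells that a cumulus pool can hold were read on the same arrays by their brightest probe sets, where 15.4% of all genes passed. Among 11 granulosa and cumulus markers, 6 rose, 1 fell and 4 missed the threshold, led by INHBA, CYP11A1 and CYP19A1 at 1.14, 1.72 and 2.14, and none was low. The 1 that fell was GATM, at -1.20, named after its value was seen; its call was lost without small-follicle replicate 1 (-1.23) or 3 (-1.01). The 4 that missed were FOXL2 at 0.31, SERPINE2 at 0.19, HSD17B1 at 0.10 and AMH at -0.06. The summed linear signal of all 11 was 62184 to 65241 in large-follicle and 42010 to 45997 in small-follicle arrays. Such a sum is weighted to the brightest genes and does not measure the share of these cells. Oocyte markers bear on CDH1, which oocytes also make: of 8 measured, 0 passed, and MOS, BMP15, ZP4, KPNA7 and ZP2 were low, with MOS at 0.22, BMP15 at 0.16 and ZP4 at 0.04. Their summed signal was 129 to 139 against 120 to 144. Markers of the ovarian surface epithelium, another source of CDH1, had a mean of at most 4.78, with KRT19 and EPCAM low; 0 of 6 passed, with UPK3B at 0.29, MSLN at 0.09 and KRT19 at 0.12, and their sum was 104 to 120 against 97 to 106.

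Markers of theca, vessels and red cells were also read, and leukocyte markers read higher on average in large-follicle arrays, with overlap between the groups. Of 11 theca and stroma markers 0 passed, with COL1A2 at -1.08, PDGFRA at 1.37 and ACTA2 at 0.75. Only PTCH1 was low, the highest mean was 9.4, and the sum was 1508 to 1921 against 1549 to 1730. Of 10 endothelial markers, among them CDH5 and CLDN5 of the junction lists, TEK fell by 0.57 at a low signal, VWF at 0.46 and PECAM1 at 0.19 did not pass, and the sum was 168 to 189 against 163 to 186. TEK, PLVAP, EMCN, TIE1 and KDR were low. All 13 leukocyte markers read higher in large-follicle arrays, with a median of 0.58 against 0.01 over all genes. Of these, 2 passed (15.4%), the same share as the 15.4% of all genes. The mean of the 13 in small-follicle replicate 3 (4.87) lay above large-follicle replicates 2 and 3 (4.74 and 4.49). CORO1A rose by 0.62 and LCP1 by 0.89, CD14 at 1.02 did not pass, FCER1G and PTPRC were low, and the sum was 344 to 847 against 281 to 465. Both leukocyte calls were lost without large-follicle replicate 1 or 2 or small-follicle replicate 1 or 2 (0.50 to 0.76 and 0.69 to 1.12 over the 6 fits). Of 5 erythrocyte markers 0 passed, with HBA at 0.40, AHSP at 0.19 and SLC4A1 at 0.08, and AHSP, SLC4A1, HBB and ALAS2 were low; the sum was 79 to 95 against 70 to 85. The part of these cells in the member values was not tested.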

How the data were processed

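Each array of the 6 has a deposited column of log2 signals, 1 per probe set, made by the authors with RMA, as the submitters' processing notes record. No program, version or setting for it is named in those notes. Of 24128 probe sets, 112 that serve as controls were not tested. Gene names come from GEO's platform annotation, updated by gene identifier through the RefSeq annotation of ARS-UCD2.0, which matched 13263 probe sets; 13292 carry 1 symbol, 86 several and 10638 none. No sequences were used. The fit used lmFit and eBayes of limma 3.58.1 under R 4.3.3 (no block, no filter, 4.28 prior and 8.28 total degrees of freedom), large-follicle minus small-follicle, with 2-sided tests and Benjamini-Hochberg adjustment over 24016 probe sets. Intervals cover 95% and are unadjusted. The procedure was tested on simulated data.

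Every probe set of each member is given. Of each pathway list up to 4 genes and of each marker list up to 3 with the smallest p were named. GATM, EZR, PALS1 and CSNK1A1, and the 4 granulosa and cumulus markers that missed the threshold, were named in addition, after their values were seen. The members, lists, rules and alternatives were chosen with earlier results of these data known. The lists are described by counts and medians, with no set test. The labels do not say that a replicate number pairs arrays, so the numbers were not taken to pair them. Deviations from the group mean correlated at -0.002, -0.054 and -0.343 between arrays of the same number. With so few arrays these values cannot show whether the numbers pair them. The alternatives tried were the replicate number as a block, dropping each array in turn, 2 filters on low signal, 3 scalings, array weights, a trended robust prior, a covariate for the 3'-minus-5' index, dropping multi-transcript probe sets, 1 mean per gene, and a threshold of 0.1. Python 3.11.15 with matplotlib 3.10.9 drew the figures.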

Additional observations from a re-analysis of the deposited data

How the results depend on the processing

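The count of 0 called member probe sets stayed at 0 in every fit that left out 1 array (0 to 0), with a replicate block, median centring, array weights, the index as a covariate, 1 mean per gene, and without multi-transcript probe sets. It became 1, the brighter DAAM1 probe set each time, with either filter on low signal, a second quantile normalization, cyclic loess, a trended robust prior, or a threshold of 0.1. Over all probe sets, 1374 higher and 1720 lower calls became 787 to 1142 and 828 to 1337 when 1 array was left out, 99 and 116 with the index as a covariate, and 728 and 745 with 1 mean per gene, which tests fewer features. A block on the replicate number, which the labels do not say pairs arrays, gave 930 and 1034 and no member call. No array correlated best with the array of its own number.

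Signs turned in 7 probe sets, none of them called. With the index as a covariate, the dimmer CDH1 probe set read 0.022, CTNNA1 -0.056, DSG1 0.041 (from -0.17) and KRT19 -0.093. CTNNA1 read -0.016 after a second quantile normalization. Leaving out 1 array, CTNNA1 ranged from -0.063 to 0.107, the brighter TJP1 probe set from -0.083 to 0.042, MYO10 from -0.138 to 0.037 and ZP4 from -0.06 to 0.15. The mean of both TJP1 probe sets read 0.067. Of 206 refits of member probe sets, 189 kept sign and side of the threshold. The index differed by -0.18 with the middle in place of the 5' probe sets (p = 0.3 by exact permutation test), and by -0.63 to -0.37 leaving out 1 array. The cause of these shifts was not tested.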
